A study of Mus musculus with 9 samples.

Results

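The antioxidant and NRF2 target enzymes of the mouse aortic arch are described here as 34 genes: the transcription factor NRF2 (gene Nfe2l2) and its sensor KEAP1, the enzymes that make and reduce glutathione, the thioredoxin system, the peroxiredoxins and glutathione peroxidases, the superoxide dismutases and catalase, and the enzymes that supply NADPH or reduce quinones. They were chosen by name, with earlier results of these data known, and all 34 were found among the 21989 genes of the deposited table. The study concerns a herbal preparation given to mice with atherosclerosis, and its arch was sequenced in 9 libraries, 3 per group. C57BL/6J mice kept on standard diet gave the control libraries. The model libraries are from ApoE-/- mice, which lack an apolipoprotein that clears remnant lipoproteins, after 15 weeks of high-fat diet. The high dose libraries are from ApoE-/- mice on that diet that in addition were given ZCL at 5.12 g/kg/day by gavage for 15 weeks. Genotype and diet differ together between control and model, so their parts cannot be told apart, and high dose and model share both. No gavage is listed for the model mice, so ZCL and the gavage itself cannot be told apart between high dose and model. Neither the sex nor the age of the mice is given in the labels, and it is not stated whether the 3 libraries of a group were made from different mice, so a p-value here reflects only how far these libraries vary among themselves, which may be technical variation.

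In unstressed cells KEAP1 holds NRF2 in a ubiquitin ligase complex that sends it to the proteasome. Oxidants and electrophiles modify cysteines of KEAP1, NRF2 then enters the nucleus with a small MAF protein, and the pair binds antioxidant response elements in the promoters and enhancers of its target genes. NRF2 is regulated largely at the protein level, which RNA sequencing does not measure. In the artery wall, superoxide from NADPH oxidases and mitochondria is converted to hydrogen peroxide by the superoxide dismutases, and the peroxide is removed by catalase, peroxiredoxins and glutathione peroxidases, the last 2 of which draw their electrons from NADPH through thioredoxin and glutathione.

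The antioxidant response element has the core TGACNNNGC, and the promoters that carry this core are shown because this is the sequence that NRF2 is known to bind. RefSeq promoters on GRCm38.p6, each 300 bases from 250 before to 50 after a gene's start, were given for 30 of the 34 genes, 37 promoters in all. The core, searched on both strands, was present in 8 of these 37 promoters (21.6%), one in each of 8 genes, and in 12.4% of all 32851 promoters. The 8 genes were G6pdx, Gclm, Nfe2l2, Pgd, Prdx1, Sod1, Srxn1 and Txnrd1. The longer form TGACTCAGC, which contains the core, was present in 0.454% of all promoters and, among these genes, in Prdx1 alone. A match describes letters only, and many response elements lie outside a window of this size. Of the 6 matches that lie before the RefSeq start, 5 are printed; that of G6pdx is left out because GENCODE M21 annotates an untranslated region there. The windows run 5′ to 3′ on the strand of the gene, with the core in capitals; in all but Nfe2l2 the core lies on the other strand and is therefore read as its reverse complement.
Nfe2l2, chr2:75704865-75704913, minus strand: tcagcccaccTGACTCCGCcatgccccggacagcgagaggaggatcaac
Gclm, chr3:122245393-122245461, plus strand: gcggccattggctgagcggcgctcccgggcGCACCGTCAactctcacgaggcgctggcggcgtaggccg
Prdx1, chr4:116685436-116685504, plus strand: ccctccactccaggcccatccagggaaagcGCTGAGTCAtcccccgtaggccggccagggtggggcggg
Txnrd1, chr10:82859084-82859152, plus strand: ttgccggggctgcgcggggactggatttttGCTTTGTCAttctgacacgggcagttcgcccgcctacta
Sod1, chr16:90220676-90220744, plus strand: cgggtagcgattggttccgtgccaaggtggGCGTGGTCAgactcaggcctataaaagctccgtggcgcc

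Expression is given as FPKM, a fragment number divided by gene length and library size, so that levels can be compared between genes. The steps between FPKM values gave back whole fragment numbers, which put the depth between 11878024 fragments in control 2 and 21107109 in model 1. The 34 genes together took 1.06% to 1.78% of summed FPKM. Apoe, the deleted gene, stood at 339.9 to 1006 FPKM in control and 18.9 to 93.7 in the 6 libraries labelled ApoE-/-. Every library expressed the smooth muscle and endothelial marker lists of the arch, with summed FPKM of 491 to 4505 and of 324 to 650.3, and no gene of either list was at 0. Neighbouring tissue differed within groups. The summed FPKM of 10 heart muscle genes reached 30371 and 8298 in control 1 and 2 and 10644 and 18467 in high dose 2 and 3, against 31.5 to 94 for the remaining 5 libraries. The 7 airway genes summed to 8721 in control 2 and 25294 in high dose 2, against 12.8 to 83.5 elsewhere. The 5 brown adipocyte genes summed to 12904 in control 3 and to 1005 to 4454 elsewhere, and the 6 white and general adipocyte genes to 18739 in control 3 and 1642 to 12917 elsewhere. Macrophage genes, 9 in the list, summed to 219 to 720.1 in control, 1327 to 5453 in model and 537 to 2649 in high dose. In such bulk samples, fewer cells of a type and less RNA per cell cannot be told apart.

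Levels on the FPKM scale differed widely among the 34 genes. Gpx3, the secreted plasma glutathione peroxidase, had the highest mean over the 9 libraries, 1357 FPKM. It was followed by the cytosolic dismutase Sod1 with 623, the lipid hydroperoxidase Gpx4 with 575 and the cytosolic peroxidase Gpx1 with 572. At the other end, 2 genes were near 0. Slc7a11, the cystine importer that feeds glutathione synthesis, was represented by 383 fragments in all 9 libraries together and averaged 0.249 FPKM. Txnrd2, the mitochondrial thioredoxin reductase, averaged 0.757 FPKM from 654 fragments. These 2 did not pass the filter of 1 FPKM in at least 3 libraries, and the other 32 were tested with 12895 genes in all.

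Most differences between groups were small against the spread between libraries. Among the 32 genes, on the log2 scale, 15 were higher and 17 lower in model than in control, 14 higher and 18 lower in high dose than in model, and 15 higher and 17 lower in high dose than in control. The median log2 difference was -0.04, -0.03 and -0.01 in the 3 comparisons, beside -0.0101, 7.96e-04 and 0.00216 for all genes tested. After quantile normalization 17 were higher and 15 lower in model than in control, and with heart muscle genes as a covariate 20 were higher and 12 lower in high dose than in model. Leaving out 1 library also turned the majority: 19 were higher and 13 lower in model than in control without control 3, and in high dose than in model without model 2 or model 3, where it was 18 and 14 without high dose 2. In high dose against control, 21 were higher and 11 lower without control 3 or without high dose 2, 20 and 12 with array weights, 18 and 14 without high dose 1, and 17 and 15 without high dose 3. None of the 32 genes passed an adjusted p of 0.05 in limma, and the share of all genes tested that passed was 0% in model against control, 0% in high dose against model and 0% in high dose against control. The smallest limma adjusted p among the 32 was 0.688, 0.251 and 0.805 in that order. At an unadjusted p under 0.05, 3, 4 and 3 of the 32 passed, and of all genes 821, 1729 and 701. A test of the recovered fragment numbers with limma voom called none of all genes in any comparison. The 3 comparisons share groups, so their values are not independent of each other.

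**Figure D1:**
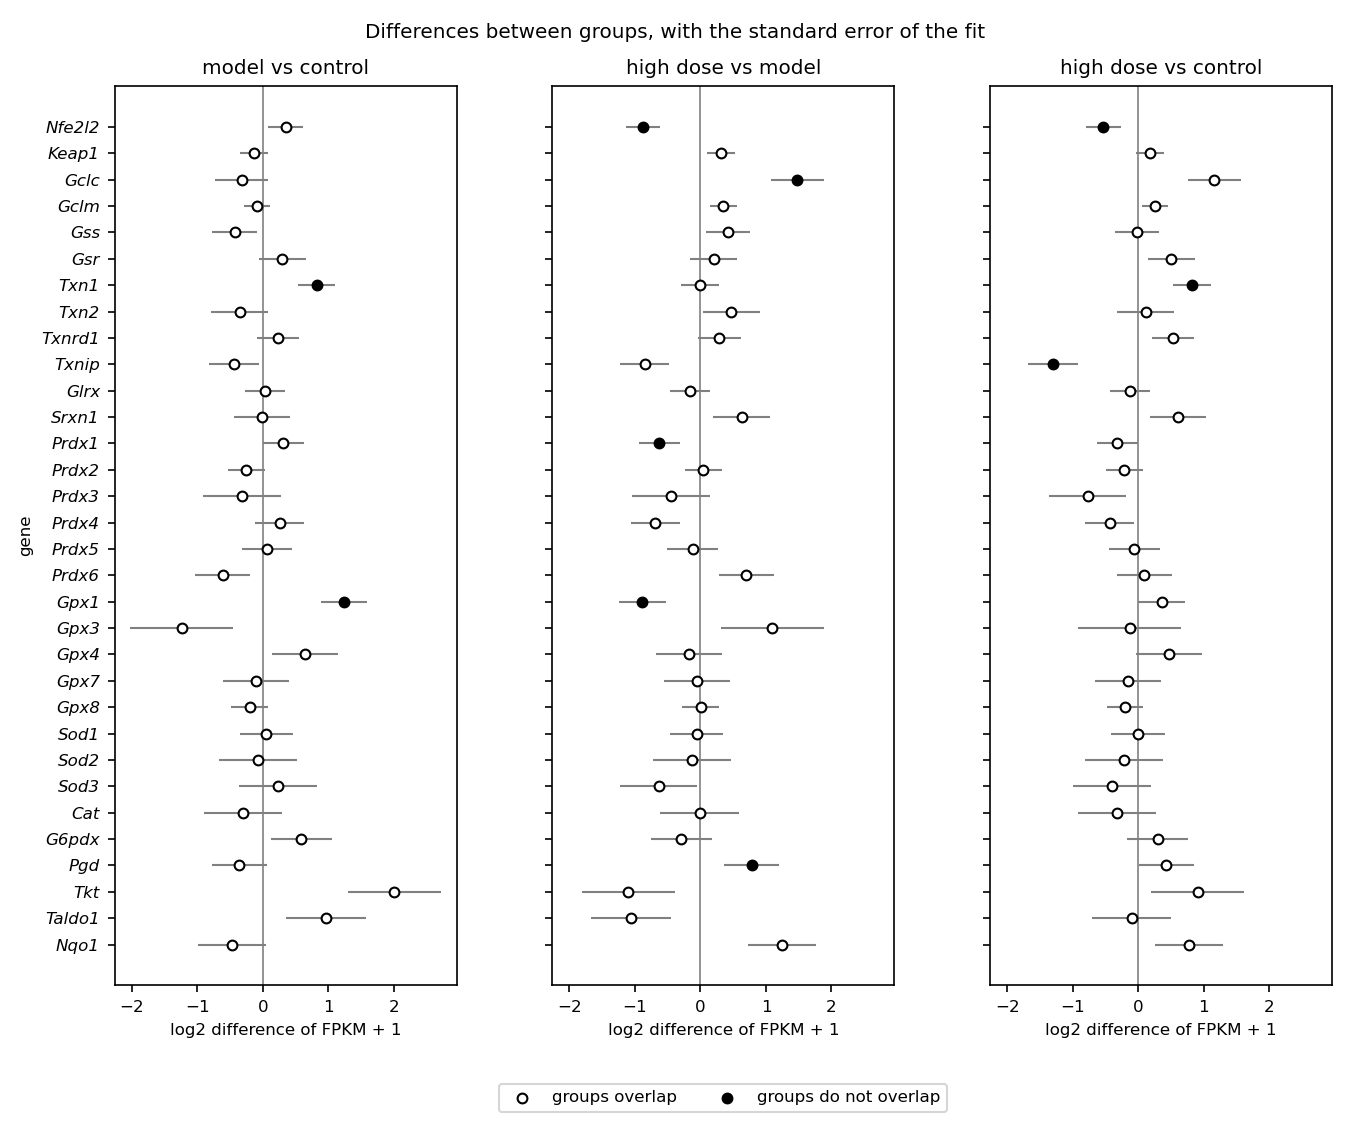
Log2 differences of FPKM + 1 for the 32 tested genes, with the standard error of the fit as a horizontal line, for the 3 comparisons; filled points are genes whose 2 groups of 3 libraries do not overlap. In every panel the points lie on both sides of 0, and no gene passed an adjusted p of 0.05.

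Counted by overlap, 2 of the 32 genes, Txn1 and Gpx1, were higher in every model library than in every control library, a pattern seen in 6.91% of all genes tested, and none was lower, against 9.06%. Between high dose and model, Gclc and Pgd were higher without overlap, 2 of 32 beside 11.7% of all genes, and Nfe2l2, Prdx1 and Gpx1 were lower without overlap, 3 of 32 beside 10.9%. Between high dose and control, Txn1 was higher without overlap, 1 of 32 beside 3.66%, and Nfe2l2 and Txnip were lower, 2 of 32 beside 5.02%. These counts lie near or below those of all genes.

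Nfe2l2, which encodes NRF2 itself (chromosome 2, 75675513 to 75704641, minus strand, GRCm38), stood at 36.2, 38.6 and 32.0 FPKM in control 1, 2 and 3, at 49.5, 49.6 and 38.3 in model and at 16.5, 27.2 and 31.9 in high dose. All 3 high dose libraries lay below all control and model libraries, and model overlapped control. High dose 3, at 31.9 FPKM, was almost equal to control 3, at 32.0, so the separation from control rests on a near tie. The log2 difference was -0.88 ± 0.263 (SE) between high dose and model, with a limma adjusted p = 0.274. It was -0.53 ± 0.263 between high dose and control (limma adjusted p = 0.888) and 0.35 ± 0.263 between model and control (limma adjusted p = 0.841). Over 20 alternative settings the difference between high dose and model ran from -1.41 to -0.61. High dose 1, the lowest library, also held the lowest smooth muscle sum (491) and the highest sum of 7 catecholamine and neuron genes (2232 against 0.448 to 539.6), and their part in the result was not tested.

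Keap1, the sensor (chromosome 9, 21229730 to 21239361, minus strand), varied less. Its levels were 17.2, 18.3 and 20.8 FPKM in the control libraries, 17.4, 16.2 and 17.4 in the model libraries and 21.9, 26.9 and 16.3 in the high dose libraries. The 3 groups overlapped, and the ratio of the highest to the lowest library was 1.66, the smallest among the genes with a value above 0 in every library. Its log2 difference was 0.31 ± 0.214 between high dose and model (limma adjusted p = 0.519), -0.13 ± 0.214 between model and control (0.942) and 0.18 ± 0.214 between high dose and control (0.926). Exons of Keap1 overlap an antisense gene by 206 bases, and with no strand setting given, the reads of both cannot be told apart.

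**Figure D2:**
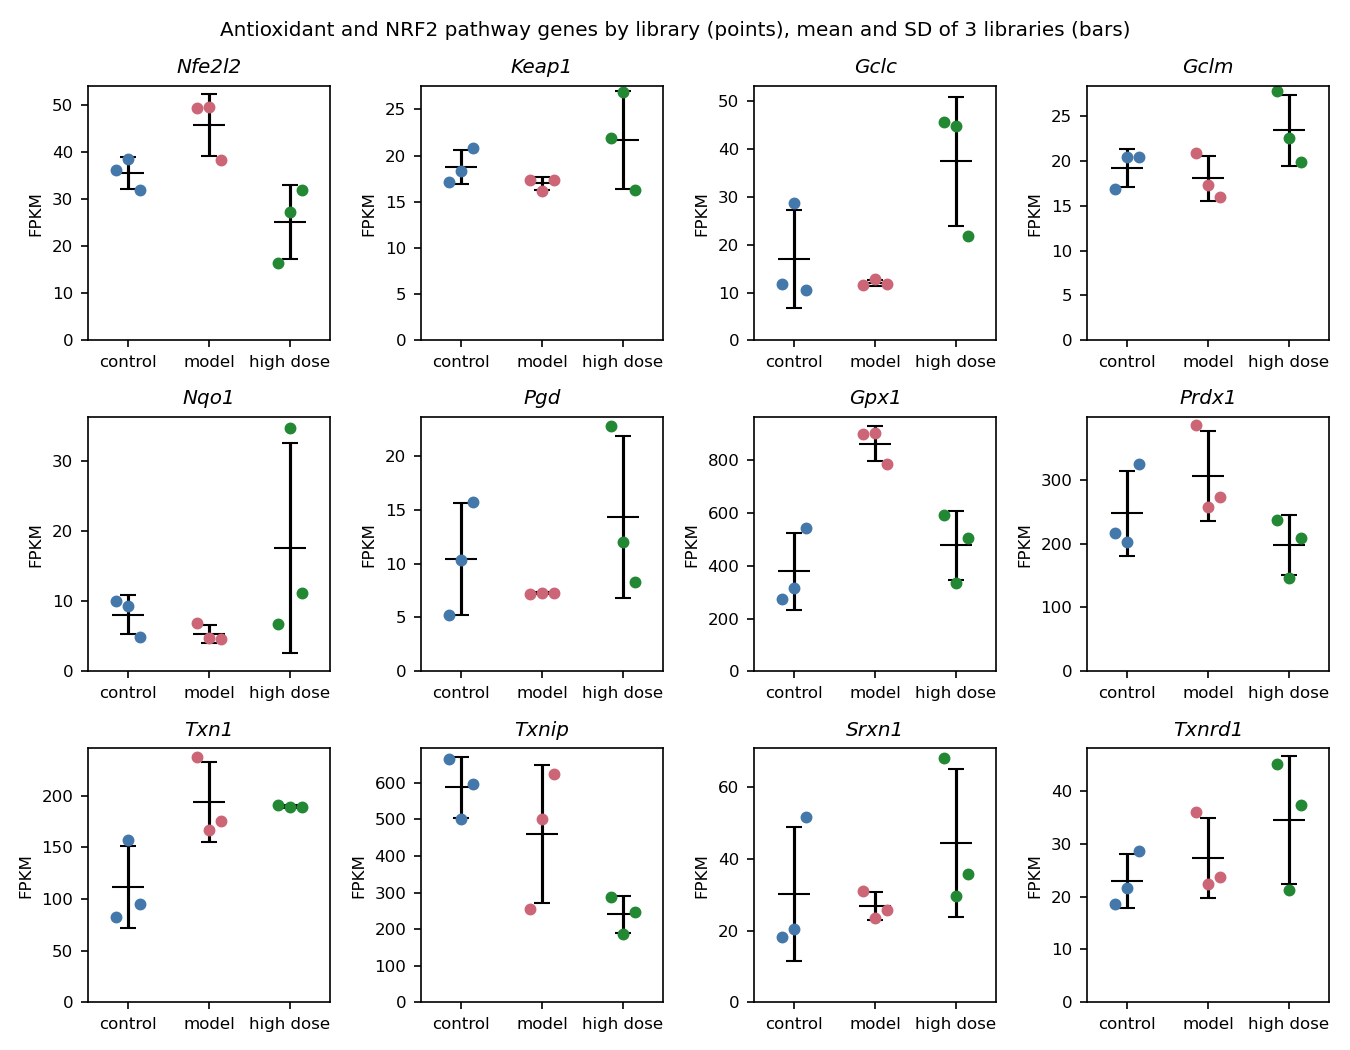
FPKM of 12 of the genes in each library (points), with the mean (horizontal bar) and SD (vertical bar) of the 3 libraries per group; each vertical axis starts at 0. Nfe2l2 is lowest in high dose, Gclc and Pgd are higher in every high dose library than in every model library, and Gpx1 is highest in the 3 model libraries, at 784 to 902 FPKM.

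The glutathione supply genes were, among those tested, each higher on average in high dose than in model, 4 of 4, with a median log2 difference of 0.38, and 3 of 4 were lower in model than in control. The first count held in every alternative for these 4 genes. The second was 2 of 4 with array weights, without control 2, without the 2 libraries high in airway genes and in the 5 libraries low in heart muscle genes, and 4 of 4 without control 1. Gclc, the catalytic subunit of glutamate-cysteine ligase, the rate-limiting enzyme of glutathione synthesis (chromosome 9, 77754535 to 77794485, plus strand), stood at 11.8, 28.8 and 10.5 FPKM in control, 11.6, 12.8 and 11.9 in model and 45.7, 44.9 and 21.9 in high dose. The 3 model libraries were nearly equal, all 3 high dose libraries lay above them, and control 2 lay between high dose 2 and high dose 3. The log2 difference between high dose and model was 1.48 ± 0.405, the smallest p of the 34 genes, with a limma adjusted p = 0.251. Over 20 alternatives it lay between 1.31 and 1.84, and the limma adjusted p between 0.0211 and 0.682. It passed the threshold in 1 of them, the fit to only the 5 libraries low in heart muscle genes, in which high dose 1 stands alone for its group. Control 2 and high dose 2, high in Gclc, were the 2 libraries with high airway sums; high dose 1, the highest in Gclc, had an airway sum of 17.5. The part of airway tissue in the result was not tested.

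The modifier subunit Gclm, which lowers the substrate requirement of the ligase, did not move with Gclc in size. Gclm stood at 16.8, 20.4 and 20.4 FPKM in control, 20.8, 17.3 and 16.0 in model and 27.7, 22.5 and 19.9 in high dose. Its groups overlapped in each comparison, and its highest library was 1.73 times its lowest, against 4.35 times for Gclc. Gss, glutathione synthetase, which adds glycine in the second step, ranged from 8.03 in model 1 to 23.4 FPKM in control 3. Gsr, glutathione reductase, which returns oxidized glutathione to its reduced form with NADPH, ranged from 9.27 in control 1 to 26.9 FPKM in high dose 3. Both overlapped in all comparisons, and Gss shares exon sequence with antisense genes and, over 13 bases, with Acss2 on the opposite strand.

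Slc7a11, too low to be tested, gave 11, 6 and 0 fragments in control 1, 2 and 3, 203, 20 and 28 in model and 23, 21 and 71 in high dose. On the FPKM scale this was 0.0716, 0.0527 and 0 in control, 1.00, 0.122 and 0.195 in model and 0.147, 0.151 and 0.499 in high dose. Every model and every high dose library lay above every control library, and model 1 stood furthest above. The shares of all genes without overlap cover tested genes only, so none stands beside this separation of few fragments. Model 1 also had the highest macrophage sum, 5453, and high dose 3, the next for Slc7a11, had 2649, the highest of its group. The part of these cells in the result was not tested.

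In the thioredoxin system, Txn1, the cytosolic thioredoxin that reduces peroxiredoxins and other oxidized proteins (chromosome 4, 57943373 to 57956411, minus strand), was higher in both ApoE-/- groups. In control the gene measured 82.5, 157 and 95.4 FPKM, in model 238, 167 and 176 and in high dose 191, 189 and 189. The highest control library, control 2, lay just below the lowest model library, and the 3 high dose libraries were nearly equal. The log2 difference was 0.82 ± 0.289 between model and control (limma adjusted p = 0.713) and 0.82 ± 0.289 between high dose and control (limma adjusted p = 0.832). A processed pseudogene, Txn-ps1, carries its name, so some of its reads may be assigned uncertainly.

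Txnip, the arrestin-like protein that binds and inhibits thioredoxin (chromosome 3, 96557957 to 96561883, plus strand), was the most abundant gene of this group. Control libraries held 666, 501 and 598 FPKM, model libraries 254, 501 and 624 and high dose libraries 288, 188 and 246. All high dose libraries lay below all control libraries, while in model, library 1 lay among the high dose values and libraries 2 and 3 near the control values. The log2 difference between high dose and control was -1.30 ± 0.377 (limma adjusted p = 0.805), and over 20 alternatives it lay between -1.44 and -1.05. The ratio of Txnip to Txn1 FPKM was 8.07, 3.18 and 6.27 in control, 1.07, 3.00 and 3.55 in model and 1.51, 0.997 and 1.30 in high dose. Control and high dose could not overlap in this ratio. Txnip was lower and Txn1 higher without overlap there, so the ratio adds no separate result. Exons of Txnip overlap those of an antisense gene by 441 bases, the longest overlap found for the 34 genes.

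Txnrd1, the cytosolic reductase that returns thioredoxin to its reduced form and a known NRF2 target, averaged 23.0 ± 5.09 FPKM (SD, n = 3) in control, 27.3 ± 7.56 in model and 34.5 ± 12.1 in high dose. Srxn1, sulfiredoxin, which repairs overoxidized peroxiredoxins and is also a known target, stood at 18.3, 20.5 and 51.7 FPKM in control, 31.2, 23.5 and 25.9 in model and 68.1, 29.8 and 35.7 in high dose. Both genes were highest in high dose 1 and next highest, for Srxn1, in control 3, and in both the groups overlapped. Glrx, glutaredoxin, which removes glutathione from proteins, ranged only from 13.8 to 30.6 FPKM, with group means of 21.3, 21.9 and 20.4. The mitochondrial thioredoxin Txn2 was highest in control 3, at 362 FPKM, and lowest in model 1, at 98.9.

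The mitochondrial reductase Txnrd2, too low to be tested, was uneven over libraries. It gave 4, 8 and 7 fragments in control, 41, 320 and 18 in model and 236, 3 and 17 in high dose. Model 2, with 320 fragments, and high dose 1, with 236, stood at 3.26 and 2.52 FPKM, with the remaining 7 libraries between 0.0360 and 0.338. The lowest model library, at 0.209 FPKM, lay above the highest control library, at 0.117, and high dose overlapped both groups. For this gene too, no share of all genes without overlap is given, because those shares cover tested genes only.

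The peroxiredoxins, which reduce peroxides through a reactive cysteine, were divided in direction: 3 of 6 were higher in model than in control and 2 of 6 higher in high dose than in model. The latter count was 1 of 6 after quantile normalization or removal of haemoglobin genes and 4 of 6 in the 5 libraries low in heart muscle genes. Prdx1, the cytosolic member whose promoter holds the longer motif shown above (chromosome 4, 116685544 to 116700822, plus strand), stood at 216, 202 and 324 FPKM in control, 386, 257 and 273 in model and 237, 146 and 209 in high dose. Every high dose library lay below every model library, and control overlapped both. The log2 difference between high dose and model was -0.63 ± 0.313, with a limma adjusted p = 0.397, and between -0.79 and -0.34 over 20 alternatives.

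The other peroxiredoxins overlapped between all groups. Prdx5, found in mitochondria, peroxisomes and cytosol, had the highest mean of the family, 406 FPKM, with 243 in model 1 and 538 in model 2. Prdx3, the mitochondrial member, ranged 5.44-fold, from 44.5 FPKM in high dose 2 to 242 in control 3. Prdx6, which also reduces phospholipid peroxides, ranged from 44.6 FPKM in model 1 to 174 in control 3. Prdx2, abundant in red cells, was 225 FPKM in control 1 against 108 to 146 in the remaining 8. The haemoglobin share of summed FPKM was highest, 14.3%, in model 1, where Prdx2 was lowest. Within control this share (3.7%, 3.13% and 2%) ran in the order of Prdx2. Within model (14.3%, 8.74% and 4.97%) it ran in the opposite order, and within high dose (0.668%, 0.569% and 4.6%) in neither. The part of red cells in these levels was not tested. Prdx4, the member of the endoplasmic reticulum, lay between 10.4 and 33.5 FPKM. Exons of Prdx2 and Prdx5 overlap protein-coding genes on the opposite strand, Rnaseh2a by 154 and Trmt112 by 360 bases, and Prdx6 has a named pseudogene.

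Gpx1, the cytosolic and mitochondrial selenium-dependent glutathione peroxidase (chromosome 9, 108338903 to 108340343, plus strand), had the clearest separation of the model libraries. Its levels were 275, 317 and 544 FPKM in the control libraries, 897, 902 and 784 in the model libraries and 590.0, 336 and 504 in the high dose libraries. All model libraries lay above all libraries of the other 2 groups, and control and high dose overlapped. The log2 difference was 1.24 ± 0.358 between model and control (limma adjusted p = 0.688), -0.89 ± 0.358 between high dose and model (limma adjusted p = 0.354) and 0.36 ± 0.358 between high dose and control (limma adjusted p = 0.911). Over 20 alternatives the difference between model and control lay between 0.66 and 1.54, with limma adjusted p from 0.042 to 1. It passed the threshold in 1 of them, with limma array weights, which gave control 3 the lowest weight (0.379) and model 2 the highest (5.92). The summed FPKM of 7 red cell genes, none at 0, was likewise higher in every model library (21378 to 64124) than in every control (8841 to 15946) and every high dose library (2694 to 21260). The macrophage sums were higher in every model library than in every control library, and high dose 3, with 2649, exceeded model 3, with 1327. The part of both cell types in the result was not tested.

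Gpx3, Gpx4, Gpx7 and Gpx8 overlapped between groups. Gpx3 stood at 3579, 1422 and 589.6 FPKM in control, 344, 638 and 1039 in model and 555, 2118 and 1930.4 in high dose. The 4 libraries above 1039 FPKM were the 4 with heart muscle sums of 8298 or more, and among them control 1 was highest and control 2 lowest in both. The part of heart muscle in these levels was not tested. Gpx4, which removes lipid hydroperoxides from membranes, was 287 and 293 FPKM in control 1 and 2, 357 in model 1, and 509.8 to 880.3 in the remaining 6. Gpx7 and Gpx8, which act in the endoplasmic reticulum, ranged from 5.60 to 25.0 and from 40.6 to 81.3 FPKM, both lowest in high dose 1. Gpx4 has a transcribed pseudogene in its name family, so its reads may be split.

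On the log2 scale the superoxide dismutases and catalase were lower in high dose than in model, 4 of 4, and than in control, 4 of 4, with median log2 differences of -0.09 and -0.26. On the FPKM scale 2 of these means went the other way: Cat averaged 187 in high dose and 177 in model, and Sod1 604 in high dose and 598 in control. Without high dose 2, only 1 of 4 was lower on the log2 scale in either comparison, and the same held without model 2 or model 3 against model and without control 3 against control. None passed the test or was without overlap, and for Sod2 and Cat the direction turned when single libraries were left out. With heart muscle genes as a covariate, the direction of Sod2 and Cat turned against model but not against control. Sod2, the mitochondrial manganese enzyme (chromosome 17, 13006846 to 13040063, plus strand), stood at 66.3, 37.5 and 178 FPKM in control, 37.3, 92.7 and 109.8 in model and 82.9, 48.0 and 72.5 in high dose. Its log2 difference was -0.074 ± 0.593 between model and control (limma adjusted p = 0.992), -0.13 ± 0.593 between high dose and model (0.939) and -0.21 ± 0.593 between high dose and control (0.971). The spread within control, from 37.5 to 178, exceeded every difference between group means.

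Cat, the peroxisomal catalase (chromosome 2, 103453849 to 103485160, minus strand), stood at 134, 145 and 456 FPKM in control, 104, 191 and 237 in model and 316, 98.9 and 146 in high dose. Its log2 difference was -0.30 ± 0.596 between model and control (limma adjusted p = 0.956), -0.014 ± 0.596 between high dose and model (0.994) and -0.32 ± 0.596 between high dose and control (0.954). Without control 3 the first became 0.27 and the last 0.25. Sod1, the copper and zinc enzyme of the cytosol, ranged from 343 FPKM in model 1 to 869 in model 3. Sod3, the extracellular enzyme of the vessel wall, reached 455 FPKM in model 1 and was lowest, at 58.7, in high dose 1, with 126 to 214 in the remaining 7. These extremes fell in the libraries with the highest and the lowest smooth muscle sum, 4505 and 491, and the part of smooth muscle was not tested.

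The pentose phosphate genes supply NADPH and exchange sugar phosphates with glycolysis. Tkt, transketolase, varied more than any other tested gene of the 34, 15.3-fold between its extremes. In control the gene measured 40.3, 75.6 and 277 FPKM, in model 176, 517 and 617 and in high dose 221, 193 and 133. Control 3 lay above model 1, so the groups overlapped. Taldo1, transaldolase, showed a like order, with 93.8, 127 and 433 FPKM in control, 211, 417 and 438 in model and 273, 109 and 139.8 in high dose. G6pdx, glucose-6-phosphate dehydrogenase, which makes the first NADPH of the pathway, stood at 17.5, 20.8 and 62.5 FPKM in control, 31.7, 48.1 and 53.3 in model and 48.4, 30.4 and 30.1 in high dose.

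In each of these 3 genes control 1 and 2 were low, control 3 and model 2 and 3 high, and high dose 1 the highest of its group. White and general adipocyte genes ran alike, with summed FPKM of 3176, 6876 and 18739 in control, 4674, 11518 and 12917 in model and 10889, 1642 and 4994 in high dose. For Cat, Sod2 and Prdx3 the highest library was control 3 and the highest of its group high dose 1, as for the sums. The part of fat tissue in these levels was not tested, and no defining marker of either adipocyte list was at 0 in any library.

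**Figure D3:**
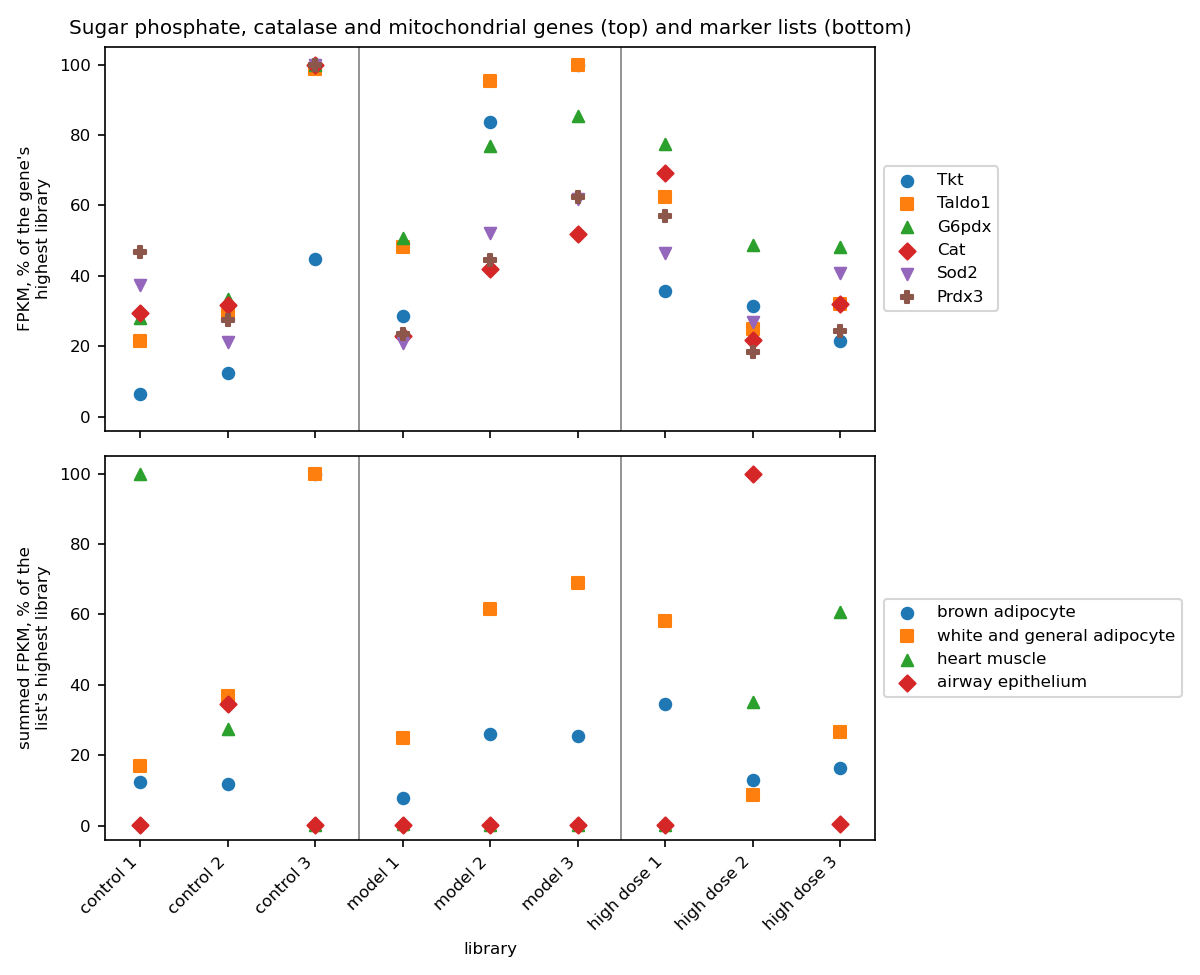
Top, FPKM of 6 genes in each library, as a percentage of the gene's highest library; bottom, summed FPKM of 4 marker lists of neighbouring tissues, as a percentage of the list's highest library. Control 3, model 2, model 3 and high dose 1 are high in the 3 sugar phosphate genes and in the adipocyte sums, and heart muscle sums are high in control 1 and 2 and in high dose 2 and 3.

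Pgd, phosphogluconate dehydrogenase, is the next NADPH-producing enzyme of the pathway (chromosome 4, 149149991 to 149166771, minus strand). Within each group its libraries had the same order as in Tkt and G6pdx. Across groups Pgd differed: model 2 and 3, high in those genes, lay below control 2 and 3. Control libraries held 5.25, 10.3 and 15.7 FPKM, model libraries 7.13, 7.26 and 7.31 and high dose libraries 22.7, 12.0 and 8.28. The model libraries were nearly equal, every high dose library lay above them, and control overlapped both groups. The log2 difference between high dose and model was 0.78 ± 0.418, with a limma adjusted p = 0.419. Over 20 alternatives it lay between 0.41 and 1.53, the highest coming from the 5 libraries low in heart muscle genes, where limma gave an adjusted p of 0.0308 against up to 0.694 in the others and high dose 1 stood alone.

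Nqo1, the quinone reductase often read as the standard target of NRF2 (chromosome 8, 107388225 to 107403206, minus strand), was low throughout, with 98 to 779 fragments per library. Its levels were 9.95, 9.37 and 4.86 FPKM in the control libraries, 6.83, 4.75 and 4.55 in the model libraries and 6.79, 34.6 and 11.2 in the high dose libraries. High dose 2 stood alone above 12 FPKM, and high dose 1 lay below model 1, so these groups overlapped. The log2 difference between high dose and model was 1.25 ± 0.519 (limma adjusted p = 0.362), and between 0.31 and 1.73 over 20 alternatives. It was -0.47 ± 0.519 between model and control (limma adjusted p = 0.905), a direction that turned with heart muscle genes as a covariate, and 0.78 ± 0.519 between high dose and control (0.888). High dose 2 also held the highest airway sum, 25294, and the highest skeletal muscle sum, 8999 against 15.4 to 399 elsewhere, and their part in the result was not tested.

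**Figure D4:**
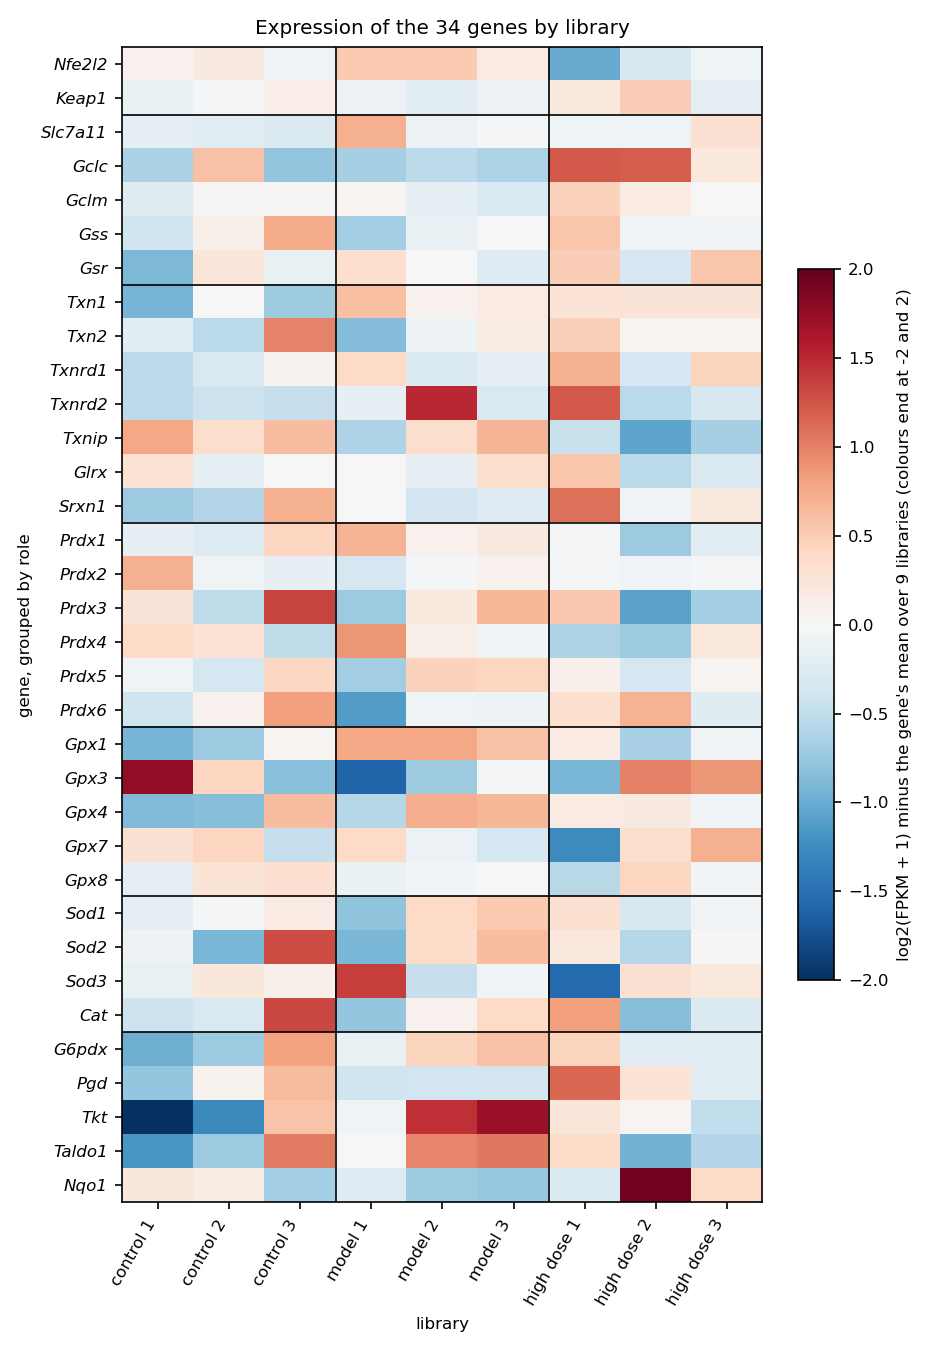
Log2(FPKM + 1) of the 34 genes in the 9 libraries, each gene centred on its mean over the libraries, ordered by role, with lines between roles and between groups; red is above and blue below the gene's mean. Control 3 is the highest library for Cat, Sod2 and Prdx3, and high dose 2 for Nqo1.

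The 8 genes with the core motif did not share a direction. In model against control 5 were higher and 3 lower, in high dose against model 4 were higher and 4 lower, and in high dose against control 5 were higher and 3 lower. Nfe2l2, Prdx1 and Pgd, which hold it, were without overlap between high dose and model, the first 2 lower and Pgd higher. Gclc has no entry in the promoter table and Nqo1 has one without the core.

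Further genes of the pathway were read from lists of known members. These lists were drawn up with earlier results of these data known, so their counts beside all genes are no independent comparison. Of 22 other NRF2 targets, such as haem, iron, conjugation and transport genes, 21 were tested. In model against control 12 were higher and 9 lower, with a median log2 difference of 0.04, a split that was 9 and 12 without model 3. In high dose against model 13 were higher and 8 lower (median 0.27), and in high dose against control 14 and 7 (median 0.23). Without overlap, 4 of the 21 were higher and 1 lower in model than in control, beside 6.91% and 9.06% of all genes. In high dose against model these counts were 3 and 0, beside 11.7% and 10.9%. In high dose against control they were 5 and 0, beside 3.66% and 5.02%. None passed the test in limma. Blvrb, biliverdin reductase B, stood at 26.9, 36.7 and 28.2 FPKM in control, 57.5, 80.9 and 82.2 in model and 58.2, 51.7 and 64.0 in high dose. Both ApoE-/- groups lay above control, by a log2 difference of 1.23 ± 0.226 in model (limma adjusted p = 0.688) and 0.91 ± 0.226 in high dose (limma adjusted p = 0.753).

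Hmox1, the inducible haem oxygenase, stood at 19.2, 23.4 and 19.4 FPKM in control, 99.1, 41.1 and 26.8 in model and 29.0, 43.2 and 72.9 in high dose. It too was above control in all 6 ApoE-/- libraries, with log2 differences of 1.18 ± 0.480 (limma adjusted p = 0.746) and 1.09 ± 0.480 (limma adjusted p = 0.888). Its order within each group was that of the macrophage sums in model and high dose, which was not tested further. Against model, the autophagy receptor Sqstm1 was 0.67 ± 0.322 higher in high dose on the log2 scale (limma adjusted p = 0.391) and the growth inhibitor Osgin1 0.84 ± 0.389 higher (limma adjusted p = 0.380), both without overlap. Panx2 was listed at 0 in all 3 model libraries and at 1.01 to 2.34 FPKM in high dose. In control it stood at 2.65, 1.95 and 0.193 FPKM, so all its levels were near the filter of 1 FPKM. Its log2 difference was -1.23 ± 0.423 between model and control (limma adjusted p = 0.713). Between high dose and model it was 1.36 ± 0.423 (limma adjusted p = 0.284). The transporter Abcc1 was 0.78 ± 0.258 higher in high dose than in control (limma adjusted p = 0.832).

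Of 14 partners and regulators of NRF2 and KEAP1, 13 were tested and none passed. In the 3 comparisons 7, 7 and 8 were higher and 6, 6 and 5 lower. Without overlap, 1, 1 and 3 were higher and 0, 1 and 0 lower, beside the shares of all genes given above. Rbx1, the RING subunit of the cullin ligase that KEAP1 joins, was without overlap higher in high dose, with 75.9, 69.4 and 56.3 FPKM against 41.8, 45.4 and 40.7 in model and 43.6, 55.2 and 55.7 in control. The log2 difference was 0.64 ± 0.202 against model (limma adjusted p = 0.285) and 0.38 ± 0.202 against control (limma adjusted p = 0.888). Mafg, a small MAF partner, was higher in both ApoE-/- groups than in control, by 0.45 ± 0.196 (limma adjusted p = 0.761) and 0.32 ± 0.196 (limma adjusted p = 0.888) on the log2 scale. Sesn2, a stress protein that promotes KEAP1 degradation, was 1.09 to 4.15 FPKM in high dose and 4.49 to 6.63 in model, a log2 difference of -1.01 ± 0.412 (limma adjusted p = 0.358). Maff, another small MAF, was 0.60 ± 0.272 higher in high dose than in control (limma adjusted p = 0.888).

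Of 29 other antioxidant and redox repair genes, 26 were tested and none passed. In model against control 11 were higher and 15 lower, in high dose against model 17 and 9, and in high dose against control 14 and 12, a split that was 12 and 14 after quantile normalization. Without overlap, 1, 5 and 4 were higher in these comparisons and 2, 3 and 2 lower, beside the shares of all genes given above. The metallothioneins, metal-binding proteins that also scavenge oxidants, had the largest differences among the genes named from this list. Mt1 stood at 558, 459.6 and 325 FPKM in control, 235, 195 and 273 in model and 968, 2574 and 2151 in high dose. The 3 groups did not overlap: model was lowest and high dose highest, with log2 differences of -0.91 ± 0.424 between model and control (limma adjusted p = 0.761), 2.91 ± 0.424 between high dose and model (limma adjusted p = 0.141) and 2.00 ± 0.424 between high dose and control (limma adjusted p = 0.569).

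Mt2 stood at 239, 250.1 and 147 FPKM in control, 181, 72.9 and 152 in model and 478, 2520.4 and 1486 in high dose. All high dose libraries lay above the rest, by 3.25 ± 0.615 against model (limma adjusted p = 0.162) and 2.55 ± 0.615 against control (limma adjusted p = 0.705) on the log2 scale. The lactonase Pon3 was lower in high dose than in model, by a log2 difference of -1.39 ± 0.470 (limma adjusted p = 0.309), and the methionine sulfoxide reductase Msrb3 lower than in control, by -0.86 ± 0.377 (limma adjusted p = 0.888). Gstk1, a glutathione transferase of mitochondria and peroxisomes, was lower in model than in control, by -0.78 ± 0.370 (limma adjusted p = 0.761). Txndc17, a thioredoxin-like protein, was 0.26 ± 0.179 higher in model than in control (limma adjusted p = 0.824).

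Gpx1, Gpx3, Gpx4 and the thioredoxin reductases carry selenocysteine, and 18 genes of its insertion machinery and of other selenoproteins were all tested. In the 3 comparisons 10, 6 and 7 were higher and 8, 12 and 11 lower, and none passed. The first split was 7 and 11 without control 1 and 8 and 10 without control 3, and the last 10 and 8 without high dose 2. Without overlap, 0, 2 and 1 were higher and 1, 1 and 1 lower, beside the shares of all genes given above. Selk, a selenoprotein of the endoplasmic reticulum, stood at 138, 156 and 115 FPKM in control, 94.4, 90.3 and 87.7 in model and 143, 100.2 and 152 in high dose. Model lay below both other groups without overlap, by a log2 difference of -0.57 ± 0.237 against control (limma adjusted p = 0.749), and high dose was 0.51 ± 0.237 above model (limma adjusted p = 0.381). Sepsecs, which makes selenocysteine on its transfer RNA, was -0.92 ± 0.269 in high dose against model (limma adjusted p = 0.267), and Pstk, the kinase of the step before, -0.64 ± 0.245 in high dose against control (limma adjusted p = 0.857). Sepw1, a small muscle selenoprotein, was 0.86 ± 0.431 higher in high dose than in model (limma adjusted p = 0.401), with 1411 FPKM in high dose 2 against 347 to 521 elsewhere. Vimp, a selenoprotein of protein quality control, was 0.38 ± 0.208 higher in high dose than in control (limma adjusted p = 0.888).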

How the data were processed

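RNA was sequenced from 9 aortic arch libraries, 1.5 micrograms of RNA each per the labels' protocols, and the authors deposited 1 table of FPKM values, with the builds GRCm38.p5 and mm10 per the submitters' processing notes. Which aligner and counter made them, and whether strand was used, is not given in the sources used here. Columns were matched to groups by name, and 0 columns went unused.

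FPKM values of a gene are whole multiples of 1 fragment's worth. For each of 16882 genes above 0 in at least 4 libraries, fragment numbers whole within 0.05 were recovered in 100% of cases. Main tests stayed on FPKM: log2(FPKM + 1) was fitted with limma 3.58.1 (R 4.3.3), with 1 model for all 9 libraries, empirical Bayes with a trend, two-sided, Benjamini-Hochberg adjustment over 12895 genes with at least 1 FPKM in at least 3 libraries, threshold 0.05. Differences on this scale understate those of low genes. The fit was tested on simulated data. Means are given ± SD over libraries and log2 differences ± the fit's standard error.

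The members and lists were chosen with earlier results of these data known. Log2 differences are given for genes whose groups do not overlap, for Nfe2l2, Keap1, Nqo1, Sod2, Cat and Gpx1 in every comparison, and for up to 3 genes of smallest p without overlap in each further list. Of the list genes, 11 were matched by gene ID to an older name, and 1 was not found. Gene positions and overlaps are from GENCODE M21 on GRCm38. The alternatives tried were array weights, robust empirical Bayes, heart muscle genes as a covariate, the replicate block, a fit of only the 2 groups, leaving out each library, removal of haemoglobin genes, quantile normalization, median-ratio rescaling, a filter at a mean of 5 FPKM, no filter, and a pseudocount of 0.1. Chosen after seeing the data were voom on fragment numbers, only the 5 libraries low in heart muscle genes, and leaving out the 2 libraries high in airway genes. Tables and figures used Python 3.11.15, numpy 2.4.6, pandas 2.3.3 and matplotlib 3.10.9. One gene overlap is not reported here.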

Additional observations from a re-analysis of the deposited data

How the results depend on the processing

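Of 24 named differences among the 34 genes, 17 kept their sign under all 20 alternatives each. Part of this count was fixed in advance. Where 2 groups do not overlap, leaving out 1 library cannot turn the sign. Robust empirical Bayes, the replicate block and a fit of only the 2 groups leave each estimate unchanged. So do no filter and the filter at a mean of 5 FPKM. For Sod2 in model against control the log2 difference was 0.0267 after quantile normalization, 0.0058 without haemoglobin genes and 0.4658 with array weights, and between -0.5783 and 0.5316 with 1 library left out (positive without control 3 or model 1). For Cat there it was 0.3042 with array weights and -0.6131 to 0.2652 with 1 library left out (positive without the same 2). For Nqo1 there it was 0.1300 with heart muscle genes as a covariate and 0.1044 in the 5 libraries low in them. In high dose against model, those 2 settings gave 0.4473 and 0.1906 for Sod2 and 0.8124 and 0.9092 for Cat, leaving out the 2 libraries high in airway genes gave 0.0948 and 0.3566, and leaving out 1 library gave -0.6018 to 0.164 and -0.4752 to 0.3566 (positive without model 2, model 3 or high dose 2, and for Cat high dose 3). In high dose against control, leaving out 1 library gave -0.7098 to 0.4 for Sod2 and -0.7778 to 0.2515 for Cat (positive without control 3 or high dose 2). The cause was not tested.

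Calls over all genes were 0 except as follows. In model against control, array weights called 684 of 12895 genes, 261 higher and 423 lower in model. Of the 32 tested members they called 3 (Gpx1, Taldo1 and Tkt, all higher in model). In high dose against model, 1 was called without haemoglobin genes, 6 with array weights, 1 in a fit of only the 2 groups compared, 0 to 46 with 1 library left out (46 without high dose 3), and 591 in the 5 libraries low in heart muscle genes, which was added once the data had been seen and called 2 of the 34 genes, Gclc and Pgd. In high dose against control this setting called 229 genes and 1 of the 34, Gclc. It leaves high dose 1 and control 3 as lone samples of their groups, assumed to vary like the model libraries. With the replicate number as a block, 0 genes were called in each comparison. Deviations of same-numbered libraries from their group means had correlations from -0.522 to 0.306. Libraries also differed in neighbouring tissue, so these correlations cannot show whether the numbers pair the samples. Removal of haemoglobin genes moved the median of all genes in high dose against model to -0.13, and 12 of the 32 tested genes were then higher and 20 lower. Depth limits Slc7a11 and Txnrd2, which have 383 and 654 fragments in all.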
